A study of Rattus norvegicus with 12 samples.

Results

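The arcuate nucleus of rats that responded strongly to electroacupuncture was compared between stimulation at 2 Hz and at 100 Hz. The arrays were taken by their titles, 3 of the high responders stimulated at 2 Hz, called 2Hz_HR here, and 3 of the high responders stimulated at 100 Hz, called 100Hz_HR. These are 6 of the 12 arrays of the series. The other 6 are of non-responders (NR) at the same frequencies, 2Hz_NR and 100Hz_NR, and serve here to test whether the frequency difference itself differed between the response classes.

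Every rat was a Sprague-Dawley rat without a stated age or sex. Needles at acupuncture points were stimulated electrically for 30 min, pain sensitivity was tested, and the animals rested for 1 h in their home cages before tissue was taken. High responders are defined by the analgesia that the stimulation produced, so the animals of both groups were chosen by that response. One 2-colour cDNA array per rat carried that rat's RNA in Cy3, and a single Cy5-labelled mixture of RNA from 3 unstimulated control rats stood on every array. For the mixture, the labels give the arcuate nucleus as source, while DH stands in its extraction protocol and dorsal horn in the study's design. Both sides of the comparison share the mixture and the dye orientation, so neither enters the difference between the frequencies as a constant. The array-to-array variation of the Cy5 signal does enter it.

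The arcuate nucleus lies at the base of the hypothalamus and holds neurons that make pro-opiomelanocortin, the precursor of the opioid peptide beta-endorphin. In the literature on electroacupuncture in rats, low frequencies are known for release of enkephalin and beta-endorphin and high frequencies for release of dynorphin in the spinal cord. The arcuate nucleus is known as a relay for the analgesia of low-frequency stimulation. None of these genes could be looked up. The files name a feature by its place on the slide, as in Sr01Sc01R13C08, which gives the row and column of a printed block and the row and column within it. No source used here pairs the places with genes, so the tissue label could not be set against its marker genes and no sequence is shown.

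Values are log2 ratios of the stimulated rat over the control mixture, Cy3 over Cy5, the reverse of the sign in the authors' table. A difference is the mean of 2Hz_HR minus the mean of 100Hz_HR. The table holds 11257 of the 12288 spots of the slide, and 9597 features had a value on all 6 arrays. On each of the 6 arrays the reversed table correlated with the log2 ratio of that array's own spot files at r between 0.97 and 0.99 across bright spots. The share of the 9597 features above background was 94.9% to 96.4% in Cy3 and 84.0% to 91.1% in Cy5, depending on the array. Above background means a mean signal over the mean local background by at least 2 of its SDs. In all, 7617 features met this in both channels on all 6 arrays and are called bright throughout. In tissue of mixed cell types, fewer cells of a type and less RNA per cell cannot be told apart. Precision is set by the 3 arrays per group. With 1 array per rat, the p-values of the main comparison measure the spread between these 6 rats together with that between their arrays. Those of Cy5 alone measure the spread between arrays, since the mixture is the same on each. Those of the comparison with non-responders come from 11 arrays.

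One array stood apart before any comparison of the groups. Across the brightest 25% of features (2399), 100Hz_HR replicate 2 correlated with the other 5 high-responder arrays at r between -0.51 and 0.24. The same array correlated at r = 0.92 with 2Hz_NR replicate 1, a rat of the other frequency and the other response class. The SD of the difference between those 2 arrays was 0.18 on the log2 scale. From the spot files with loess normalization the value was r = 0.93. Over all 9597 features, 100Hz_HR replicate 2 correlated with the other 5 arrays at r between 0.02 and 0.24. No spot file of either array is identical to that of another array. Whether the label of 100Hz_HR replicate 2 is right was not tested. Since it is 1 of the 3 arrays behind every 100Hz_HR mean, the main counts are also given without it. These correlations are across features of arrays that share the mixture, and they are given as descriptions.

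**Figure D1:**
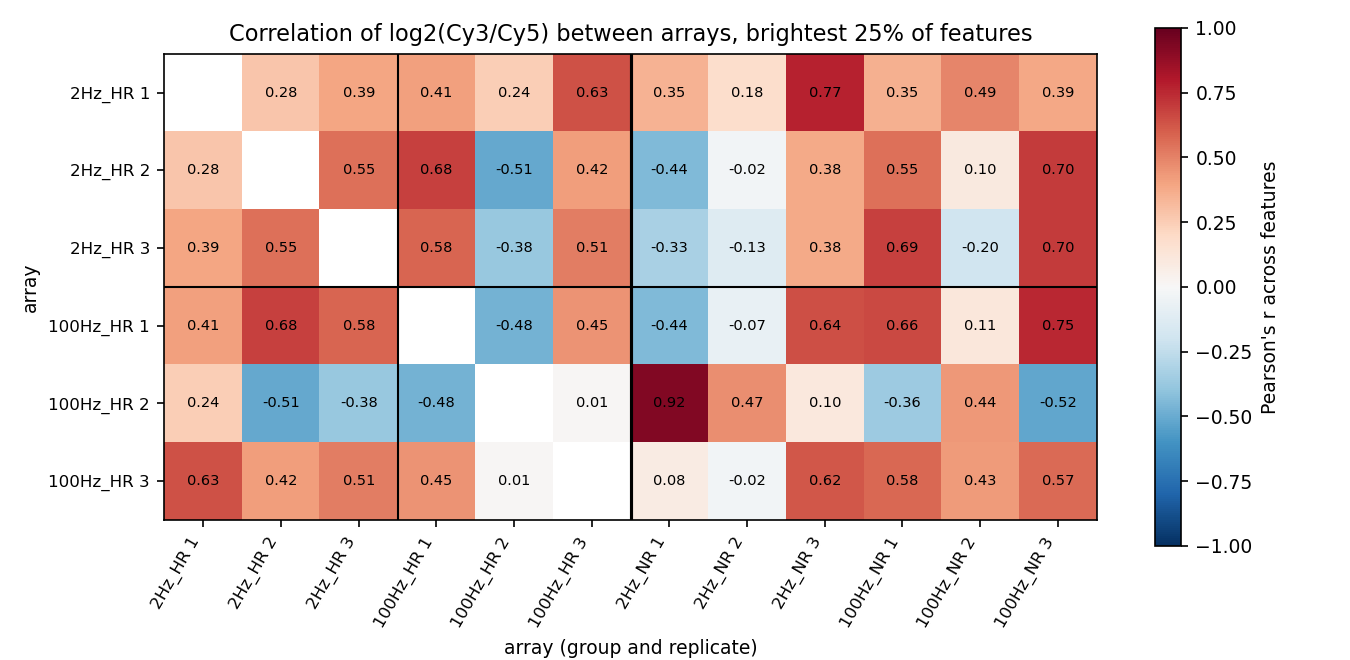
Pearson's r of log2(Cy3/Cy5) across the brightest 25% of features, for each of the 6 high-responder arrays (rows) against all 12 arrays (columns, titled by group and replicate). Among high responders every negative value involves 100Hz_HR 2, down to -0.51, and its row holds the 0.92 with 2Hz_NR 1.

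A set of bright features was high on this array and on 2Hz_NR replicate 1. Among the brightest 25%, 137 features lay over 2-fold above the mixture on 100Hz_HR replicate 2, and 5 lay over 2-fold below it. The 137 were printed in 33 of the 48 blocks of the slide, and their median log2 ratio on that array was 1.43. Their medians were -0.07, -0.52 and -0.61 on 2Hz_HR replicates 1, 2 and 3, against -0.83 and -0.33 on 100Hz_HR replicates 1 and 3. On all 5 of these arrays the median of the 137 lay below the mixture, and 92 of the 137 lay below it on every one of the 5. The median was 1.40 on 2Hz_NR replicate 1, where all 137 lay above the mixture and 128 lay over 2-fold above it. On the other non-responder arrays it lay between -0.91 (100Hz_NR replicate 3) and 0.14 (2Hz_NR replicate 2). Outside the 137, over the other 2262 of the brightest features, 100Hz_HR replicate 2 still correlated best with 2Hz_NR replicate 1 (r = 0.81). With 2Hz_HR replicates 1, 2 and 3 it then gave r = 0.44, -0.06 and -0.07, and with 100Hz_HR replicates 1 and 3 it gave 0.13 and 0.38. Since the 137 were chosen by their level on an array of the comparison, no test was made on them.

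**Figure D2:**
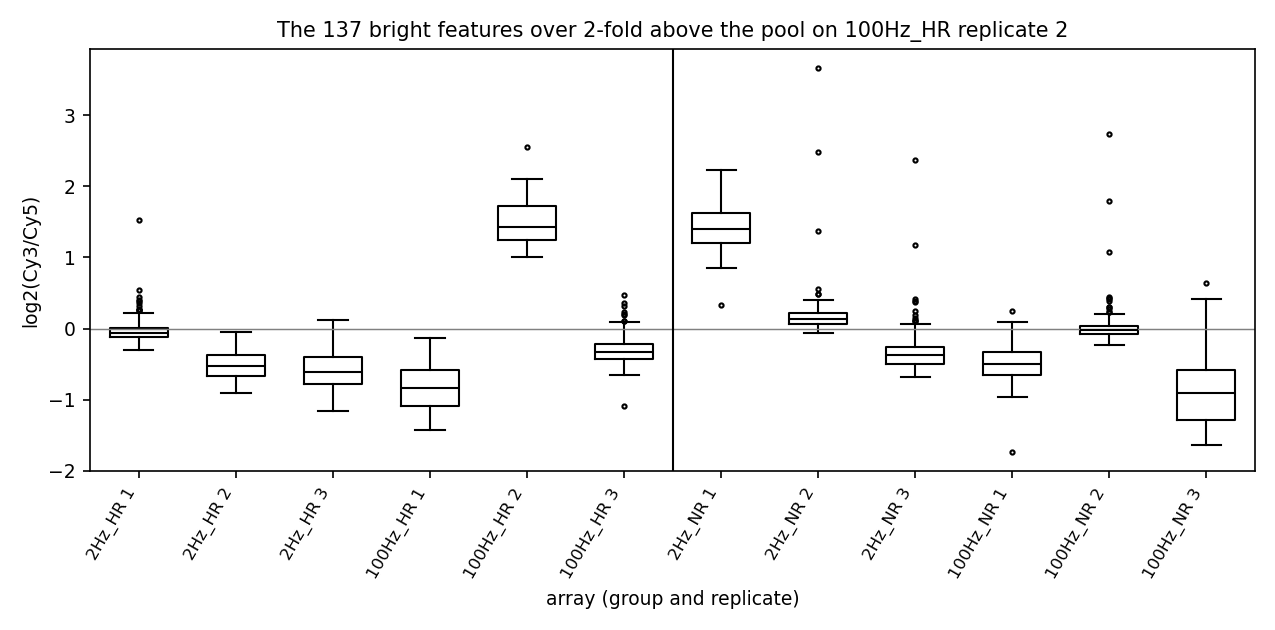
Log2(Cy3/Cy5) of the 137 features over 2-fold above the mixture on 100Hz_HR replicate 2, on each array (group and replicate). Boxes show the quartiles with the median, whiskers reach to 1.5 times the box and points lie beyond. The medians are 1.43 on 100Hz_HR 2 and 1.40 on 2Hz_NR 1, and on the other 5 high-responder arrays they lie between -0.83 and -0.07.

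Over all 9597 features, pairs within 2Hz_HR correlated at r between 0.40 and 0.49, pairs within 100Hz_HR between 0.02 and 0.22, and the 9 pairs between the groups between 0.06 and 0.48. The arrays of 1 frequency were thus not set off from those of the other. Without 100Hz_HR replicate 2, the 1 pair left in 100Hz_HR gave 0.22 and the pairs between the groups gave 0.23 to 0.48. Over the brightest 25% of features, pairs within 2Hz_HR gave 0.28 to 0.55 and that 1 pair of 100Hz_HR gave 0.45, inside the range of 2Hz_HR. The median SD of a feature's log2 ratio was 0.16 within 2Hz_HR and 0.22 within 100Hz_HR, and the SD was larger in 100Hz_HR at 67.9% of features. The array lying farthest from the median of the 6 was 2Hz_HR replicate 1, 2 or 3 at 7.90%, 7.70% and 17.7% of features, and 100Hz_HR replicate 1, 2 or 3 at 11.7%, 28.8% and 26.1%. Replicate 3 of 100Hz_HR was thus the outlying array nearly as often as replicate 2.

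The direct comparison asks which transcripts differ between the frequencies in animals that responded to them. No feature did so past the threshold. Fitted with limma, 0% of the 9597 features (0) passed at a Benjamini-Hochberg adjusted p under 0.05, and the smallest adjusted p reached 0.904. An unadjusted p under 0.05 was found at 345 features, 3.59% of those tested, where no difference anywhere would give a share of about 0.05. Of the 345, 211 were higher and 134 lower in 2Hz_HR. That split moved with the processing, to 176 higher of 345 with each array centred on its median. From the spot files it was 155 of 262 with median centring, 179 of 342 with loess, and 126 of 294 with loess and no background correction. In the last of these more were lower in 2Hz_HR. Without 100Hz_HR replicate 2, the limma count was again 0 (smallest Benjamini-Hochberg adjusted p = 0.977), and 361 had an unadjusted p under 0.05. Without 100Hz_HR replicate 3, limma called 1 feature, lower in 2Hz_HR (Benjamini-Hochberg adjusted p = 0.0463), and 396 had an unadjusted p under 0.05. Without 100Hz_HR replicate 1 the limma count was 0 (lowest Benjamini-Hochberg adjusted p = 0.191), but 718 features had an unadjusted p under 0.05, 463 of them higher in 2Hz_HR. Without 2Hz_HR replicate 3 that number was 216. The file headers date the image quantification, and 2Hz_HR replicates 2 and 3 carry another year than the other 4 arrays, though the same day of the month as 2Hz_HR replicate 1. Whether the years are true or come from the computer's clock is not known. Fits that take the year into account compare 2Hz_HR replicate 1 alone with the 3 arrays of 100Hz_HR, since the other year holds no 100Hz_HR array. Such fits called 11 features with the year as a block and 4 within the first year, all higher in 2Hz_HR, and both counts rest on that single array. By the day of the month 100Hz_HR replicate 3 stands alone, so the fit within the first day is the one without that array, with 1 call. For a single feature of 3 rats against 3, the smallest two-sided p of an exact permutation test is 0.1.

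If every order of 3 and 3 arrays were equally likely, the groups would not overlap at a share of 0.1 of features. The 3 arrays of 2Hz_HR and the 3 of 100Hz_HR did not overlap at 910 features, 9.48% of all, which is near that share. At 588 of them (6.13%) every 2Hz_HR array lay above every 100Hz_HR array, and at 322 (3.36%) every 2Hz_HR array lay below. The share of these features that were higher in 2Hz_HR, 64.6%, depended on how the arrays were processed. In the authors' table it was 50.4% with each array centred on its median and 49.9% with quantile normalization between arrays. It was 49.0% with arrays scaled to equal spread, and 51.0% with the median of each printed block subtracted. From the spot files it was 61.5% with median centring, 55.1% with loess, and 59.3% with loess and no background correction. With loess within each printed block it was 52.3%. The median log2 ratios of the arrays were -0.03, 0.00 and -0.02 in 2Hz_HR, against 0.01, -0.05 and -0.11 in 100Hz_HR, and the median difference over all features was 0.03.

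Sizes were small. Over features the difference had an SD of 0.31 in log2 units (1.24-fold), and the middle of the distribution ran from -0.12 at the 25th percentile to 0.15 at the 75th. Differences over 1.5-fold were seen at 532 features (5.54%), 263 higher and 269 lower in 2Hz_HR, and differences over 2-fold at 128 (1.33%), 72 higher and 56 lower. Of those 128, the arrays of the groups did not overlap at 65. The 95% interval of a feature's difference reached 0.41 to either side at the median feature, a factor of 1.33, and 1.25 at the 95th percentile of features, a factor of 2.38. Each interval is for a single feature, without adjustment for multiple tests.

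Most of the large differences were at dim spots. Of the 128 features over 2-fold, 119 were not bright throughout. Among the 7617 that were, 9 (0.118%) differed over 2-fold, 4 higher and 5 lower in 2Hz_HR, and the arrays of the groups did not overlap at 1 of the 9. In 4 equal classes of brightness, from the dimmest to the brightest, the number over 2-fold was 109, 12, 6 and 1, and the SD of the difference was 0.46, 0.26, 0.22 and 0.22. The number at an unadjusted p under 0.05 was 206, 75, 38 and 26 in the same order. These numbers depend on the fit, which drew the spread of dim and bright features toward 1 common value. Of the features bright throughout, 157 had such a p in this fit and 210 when they were fitted alone. Arrays of 2Hz_HR were clear of those of 100Hz_HR at 10.7%, 9.30%, 9.50% and 8.46% of features, and at 8.91% of those bright throughout.

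**Figure D3:**
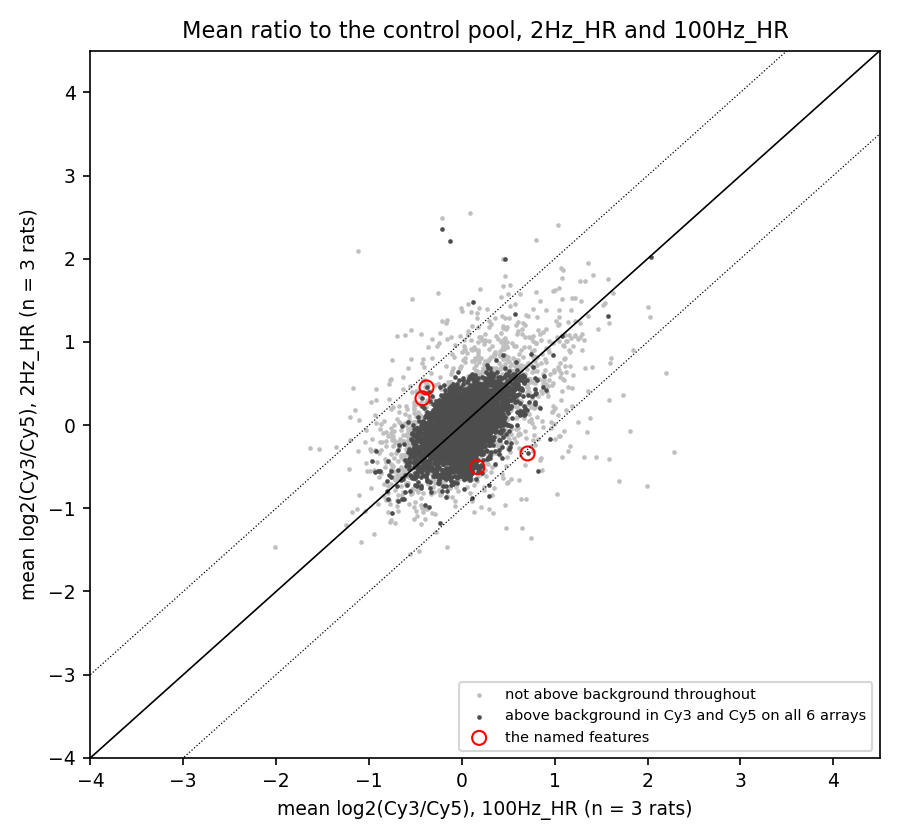
Mean log2(Cy3/Cy5) over 3 rats of 2Hz_HR (vertical axis) and of 100Hz_HR (horizontal axis) for 9597 features. Dark points lay above background in both channels on all 6 arrays, light points did not, the solid line marks equal means and the dotted lines mark 2-fold. Of the 128 features outside the dotted lines 9 are dark, and the 4 named features are ringed.

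Among features bright throughout, 116 (1.52%) differed over 1.5-fold, and these leaned to one side, with 24 higher and 92 lower in 2Hz_HR. The arrays of the groups did not overlap at 25 of the 116. All features bright throughout whose arrays did not overlap leaned the other way, with 439 higher and 240 lower in 2Hz_HR. The numbers over 1.5-fold were counted in the authors' values only, not under other normalizations. They moved with single arrays, while the lower features outnumbered the higher ones each time 1 array was left out. Those counts share most of their arrays. Of the 92 lower features, 38 belonged to the 137 that were high on 100Hz_HR replicate 2. The 137 were chosen for that level, so their number among the lower features, with or without that array, follows in part from the choice. Without 100Hz_HR replicate 2 the count was 89, with 26 higher and 63 lower, and 0 of the 137 were among the lower ones. Without 100Hz_HR replicate 1 it was 502, with 122 higher and 380 lower, and without 100Hz_HR replicate 3 it was 294, with 70 higher and 224 lower. Without 2Hz_HR replicate 1 it was 335, with 113 higher and 222 lower, and without 2Hz_HR replicate 2 it was 146, with 50 higher and 96 lower. Without 2Hz_HR replicate 3 it was 69, with 24 higher and 45 lower.

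The features named here were taken by rule among those that were bright throughout, had no spot marked poor by hand and did not overlap between the groups, 435 higher and 238 lower in 2Hz_HR. In each direction these are the feature with the smallest p and, of the rest, the one with the largest difference. None of the 4 passed the test.

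Feature Sr01Sc01R13C08, in the block at row 1 and column 1, had the smallest p among the higher ones. Its log2 ratio was 0.39, 0.39 and 0.18 in 2Hz_HR replicates 1, 2 and 3, against -0.46, -0.54 and -0.27 in 100Hz_HR replicates 1, 2 and 3. All 2Hz_HR rats lay above the mixture and all 100Hz_HR rats below it. The means were 0.32 ± 0.12 in 2Hz_HR and -0.42 ± 0.14 in 100Hz_HR (SD, n = 3 each). The difference was 0.75, or 1.68-fold, with an SE of 0.13 and a 95% interval from 0.43 to 1.06, and it did not pass in limma (Benjamini-Hochberg adjusted p = 0.904). It was bright, and its channels moved together. Net Cy3 intensity, the spot less its background, was 5134, 4168 and 3929 in 2Hz_HR, against 548, 1056 and 1953 in 100Hz_HR. Net Cy5 intensity, from the same mixture on every array, was 6330, 5107 and 5526 in 2Hz_HR, against 1112, 2032 and 3945 in 100Hz_HR. So the control channel did not overlap between the groups either. With each channel centred on the array's median, the log2 difference was 1.93 in Cy3 and 1.18 in Cy5. The part of this shared shift of both channels in the difference of the ratio was not tested.

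Feature Sr01Sc01R14C15, from the same block, had the largest difference among the other higher ones. Its log2 ratio was 0.28, 0.41 and 0.67 in 2Hz_HR replicates 1, 2 and 3, against 0.14, -1.08 and -0.20 in 100Hz_HR replicates 1, 2 and 3. The groups did not overlap, but only 100Hz_HR replicate 2 lay far below the others. The means were 0.45 ± 0.20 in 2Hz_HR and -0.38 ± 0.63 in 100Hz_HR (SD, n = 3 each). The difference of 0.83, or 1.78-fold, had an SE of 0.32 and did not pass in limma (Benjamini-Hochberg adjusted p = 0.904), and without 100Hz_HR replicate 2 it was 0.48. The spots were dim. Net Cy3 intensity was 252, 259 and 336 in 2Hz_HR, against 141, 46.5 and 153 in 100Hz_HR, and Cy5 was lower in 100Hz_HR as well, with 288, 287 and 286 in 2Hz_HR, against 178, 84.9 and 216 in 100Hz_HR. From the spot files with no background correction the difference was 0.28.

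Feature Sr06Sc01R09C12 had the smallest p among the lower ones. Its log2 ratio was -0.54, -0.28 and -0.70 in 2Hz_HR replicates 1, 2 and 3, against -0.06, 0.27 and 0.30 in 100Hz_HR replicates 1, 2 and 3. Every 2Hz_HR rat lay below the mixture and below every 100Hz_HR rat. The means were -0.51 ± 0.21 in 2Hz_HR and 0.17 ± 0.20 in 100Hz_HR (SD, n = 3 each). The difference was -0.67, or 1.60-fold lower in 2Hz_HR, with an SE of 0.17 and a 95% interval from -1.08 to -0.27, and it did not pass in limma (Benjamini-Hochberg adjusted p = 0.904). Here the control channel overlapped between the groups. Net Cy5 intensity was 456, 621 and 694 in 2Hz_HR, against 536, 329 and 549 in 100Hz_HR, a centred log2 difference of 0.08. Net Cy3 intensity was 215, 341 and 301 in 2Hz_HR, against 340, 330 and 491 in 100Hz_HR, a centred log2 difference of -0.45. The Cy3 intensities themselves overlapped between the groups before they were set against the control channel.

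Feature Sr06Sc03R11C16 had the largest difference among the other lower ones, and 1 array carried it. Its log2 ratio was -0.23, -0.44 and -0.35 in 2Hz_HR replicates 1, 2 and 3, against -0.01, 0.03 and 2.10 in 100Hz_HR replicates 1, 2 and 3. The groups did not overlap, and 100Hz_HR replicate 3 lay far above all other rats. The means were -0.34 ± 0.11 in 2Hz_HR and 0.71 ± 1.21 in 100Hz_HR (SD, n = 3 each). The difference was -1.05, or 2.07-fold lower in 2Hz_HR, with an SE of 0.56 and a 95% interval from -2.41 to 0.32 (limma, Benjamini-Hochberg adjusted p = 0.904). Without 100Hz_HR replicate 3 it was -0.35. Net Cy3 intensity was 57.7, 51.7 and 79.5 in 2Hz_HR, against 52.3, 90.1 and 352 in 100Hz_HR. The local Cy3 background at that spot was also highest on 100Hz_HR replicate 3, at 364.6.

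**Figure D4:**
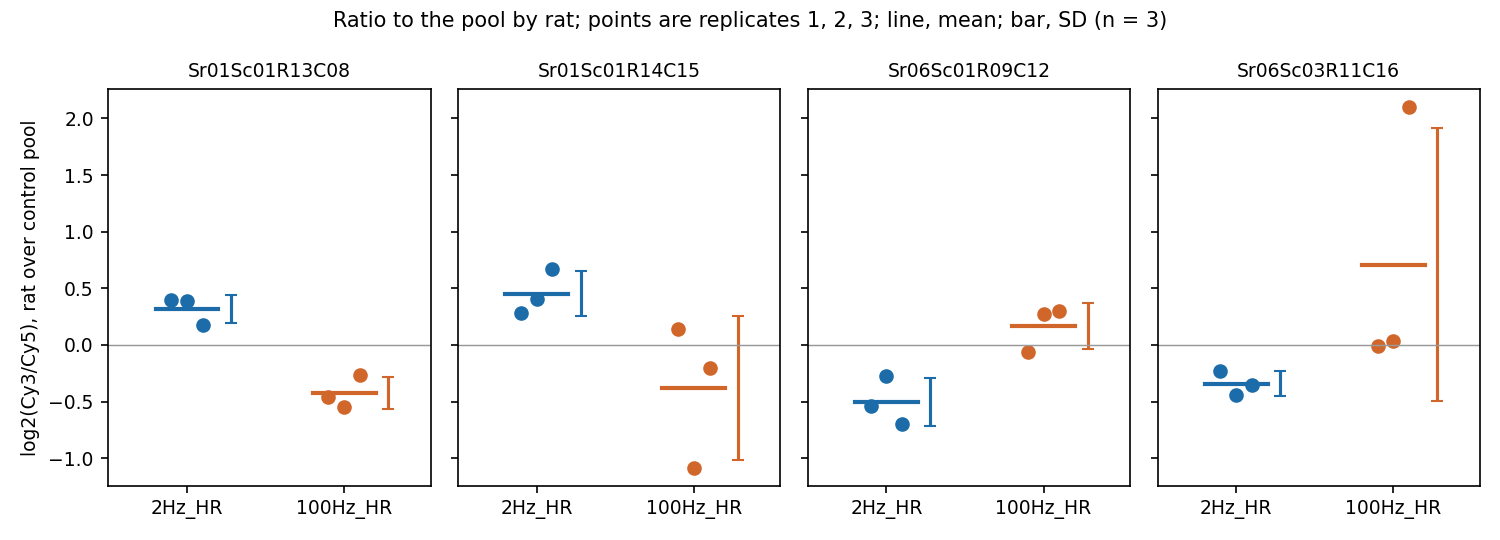
Log2(Cy3/Cy5) of the 4 named features in each rat of 2Hz_HR (left in each panel) and 100Hz_HR (right). Points are replicates 1, 2 and 3 from left to right, the line is the mean and the bar the SD (n = 3). By the rule that chose these features, no 2Hz_HR point overlaps a 100Hz_HR point. In the second panel (-1.08) and in the fourth (2.10), 1 rat of 100Hz_HR lies far from the others.

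The control channel gave a yardstick, since Cy5 holds the same mixture on all 6 arrays. In Cy3 by itself, with each array centred on its median, limma called 0% of the 9597 features (0, lowest Benjamini-Hochberg adjusted p = 0.858), and in Cy5 alone 0% (0, lowest Benjamini-Hochberg adjusted p = 0.994). An unadjusted p under 0.05 was found at 548 features in Cy3 (5.71%) and 315 in Cy5 (3.28%). In Cy3, 13.0% of features had 2Hz_HR arrays clear of all 100Hz_HR arrays, and in Cy5, 9.56%. The SD of the difference between the groups was 0.34 in Cy3 and 0.30 in Cy5 on the log2 scale. A difference over 1.5-fold was seen at 742 features in Cy3 and at 533 in Cy5. The counts at an unadjusted p under 0.05, without overlap and over 1.5-fold were thus each larger in Cy3 than in Cy5. The common mixture's channel held many such differences too, and no test set one channel against the other. The median SD of a feature within the groups was 0.307 in Cy3 and 0.305 in Cy5. Within an array, a feature's deviations from its mean over the 6 arrays went together in both channels across features, at r = 0.92, 0.89 and 0.77 on 2Hz_HR replicates 1, 2 and 3, against 0.83, 0.62 and 0.72 on 100Hz_HR replicates 1, 2 and 3.

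Differences also varied with the place on the slide. The median difference of the ratio in the 48 printed blocks ran from -0.13 to 0.19 on the log2 scale (SD 0.07), and 26 blocks lay above 0. The block at row 1 and column 1, which holds both of the named higher features, had the highest median of all blocks, 0.19 over 227 features. In that block the median difference was 0.46 in Cy3 and 0.30 in Cy5, and in the block beside it, at row 1 and column 2, it was 0.53 in Cy3 and 0.37 in Cy5. Column 1 was also high in both channels at rows 11 and 12, with 0.34 and 0.38 in Cy3 and 0.33 and 0.42 in Cy5. The medians of the ratio there were 0.09 and 0.07. With block medians subtracted the difference of Sr01Sc01R13C08 was 0.54 and that of Sr01Sc01R14C15 was 0.63. The features named as lower lay in blocks with medians of -0.04 and -0.06. With block medians subtracted the difference was -0.66 for Sr06Sc01R09C12 and -0.98 for Sr06Sc03R11C16.

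**Figure D5:**
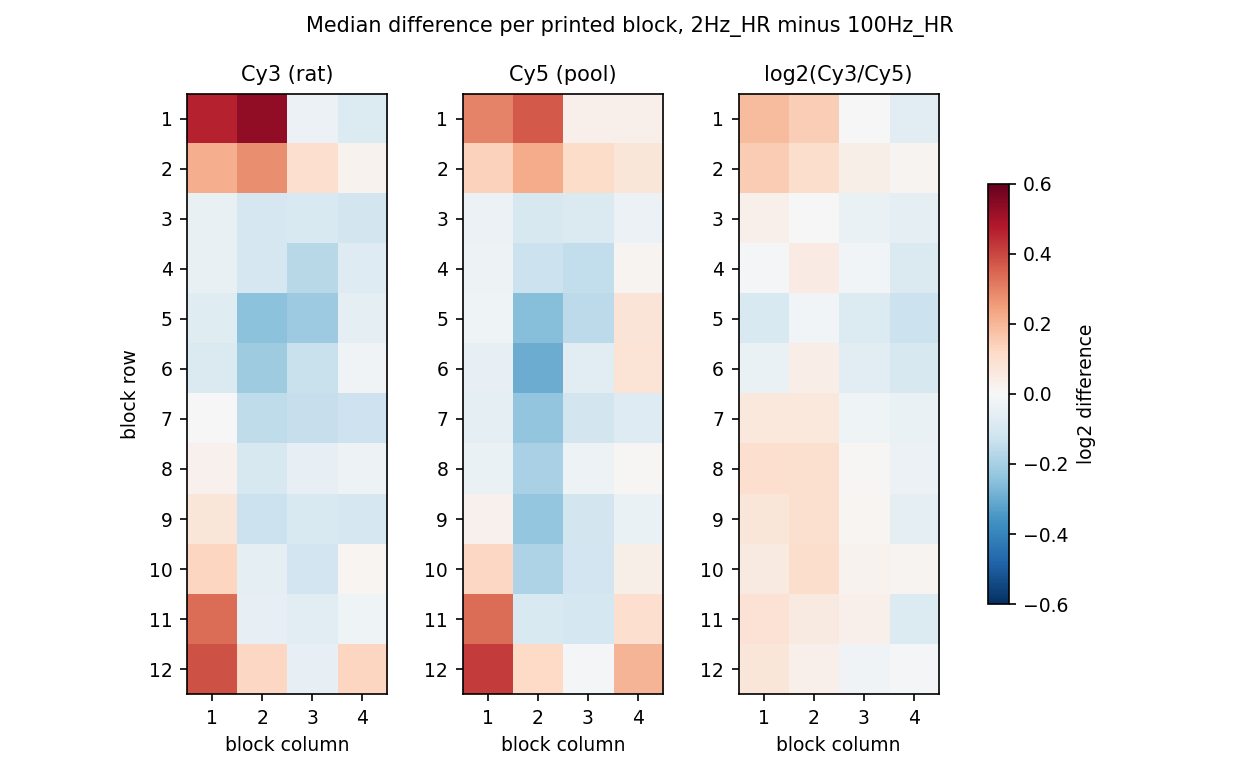
Median log2 difference, 2Hz_HR minus 100Hz_HR (n = 3 arrays each), of the features of each of the 48 printed blocks, laid out as on the slide in 12 rows and 4 columns, for Cy3 (stimulated rat), Cy5 (control mixture) and the ratio. The blocks at row 1, columns 1 and 2, are high in Cy3 (0.46 and 0.53) and in Cy5 (0.30 and 0.37), and less so in the ratio (0.19 and 0.15). Those at rows 11 and 12 of column 1 are high in Cy3 (0.34 and 0.38) and in Cy5 (0.33 and 0.42) as well.

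Set against the mixture, few of the 9597 features passed 1.5-fold the same way in a whole group. All 3 rats of 2Hz_HR were over 1.5-fold above it at 105 features and all 3 of 100Hz_HR at 74, with 9 and 8 bright throughout. Below it, the numbers were 59 and 24, with 9 and 6 bright throughout. All 6 rats were over 1.5-fold above the mixture at 28 features, 4 of them bright throughout, and all 6 were over 1.5-fold below it at 3 features, 0 of them bright throughout. All 3 rats of 2Hz_HR and none of 100Hz_HR were over 1.5-fold above at 9 features, 2 of them bright throughout. All 3 rats of 100Hz_HR and none of 2Hz_HR were so at 8 features, 0 of them bright throughout. Below the mixture, the number was 10 for 2Hz_HR without 100Hz_HR and 6 for 100Hz_HR without 2Hz_HR, with 1 bright throughout in each. At 1596 features a single array of the 6 passed 1.5-fold, and at 6142 no array did.

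Single rats differed more in these numbers than the groups. Among the 7617 features bright throughout, the number over 1.5-fold above the mixture was 202, 39 and 378 in 2Hz_HR replicates 1, 2 and 3, against 107, 512 and 410 in 100Hz_HR replicates 1, 2 and 3. The ranges of the groups overlap. The number over 1.5-fold below it was 121, 160 and 339 in 2Hz_HR, against 297, 223 and 267 in 100Hz_HR, which overlap as well. Features that passed 1.5-fold on that array alone numbered 74, 18 and 279 in 2Hz_HR, against 72, 314 and 348 in 100Hz_HR.

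Whether the frequency difference was particular to high responders was tested as the difference of differences, 2Hz_HR minus 100Hz_HR less 2Hz_NR minus 100Hz_NR. Replicate 1 of 100Hz_NR was left out, because the Cy3 file listed for it is identical to that of 2Hz_HR replicate 1. Its column in the authors' table correlated at r = 0.23 with its listed files, that Cy3 file among them. The limma fit of 11 arrays called 0% of 9382 features (0; the smallest Benjamini-Hochberg adjusted p was 0.912), and 280 (2.98%) had an unadjusted p under 0.05. At the median feature the 95% interval reached 0.55 to either side, a factor of 1.47. Without 100Hz_NR replicate 2 limma called 2 features and without 100Hz_NR replicate 3 it called 3, all with the more positive difference in high responders. In either case 100Hz_NR was a single array, assumed to vary like the other groups. With replicate 1 of 100Hz_NR kept, the limma fit of all 12 arrays called 0 of 9343 features (lowest Benjamini-Hochberg adjusted p = 0.794).

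The 4 named features were chosen by their difference in high responders, so their values in non-responders are given as a description. Feature Sr01Sc01R13C08 had log2 ratios of -0.24, -0.42 and -0.26 in 2Hz_NR replicates 1, 2 and 3, against -0.15 and 0.42 in 100Hz_NR replicates 2 and 3. All 3 rats of 2Hz_NR lay below both rats of 100Hz_NR, the opposite order to that in high responders, with a difference of 0.75 in high responders beside -0.44 in non-responders. Feature Sr01Sc01R14C15 had a difference of 0.22 in non-responders, of the same sign as in high responders. Features Sr06Sc01R09C12 and Sr06Sc03R11C16 had differences of -0.14 and -0.34 in non-responders, also of the same sign.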

How the data were processed

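Sample titles gave the groups. The authors' deposited table holds a log2 ratio per feature, and a comparison with the spot files shows it to be Cy5 over Cy3, so its sign was reversed. No source used here gives its normalization. The deposited spot files hold the intensity of each spot and its local background, not normalized, from ImaGene (5.1 per the file headers, 4.2 per the labels).

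The 9597 features with a value on all 6 arrays were fitted with lmFit and eBayes of limma 3.58.1 in R 4.3.3, two-sided, with Benjamini-Hochberg adjustment over all of them; 1660 features of the table without a full set were not tested. For single channels and loess ratios the spot files were corrected by normexp with an offset of 50. Nothing in the labels says more of the replicates than that they are separate rats. Same-numbered arrays did not deviate together (r = -0.11, -0.03 and 0.13 across features), so numbers were not used as pairs. The script was run on simulated data with independent noise at each feature's own spread. Such data hold none of the shifts shared by blocks, channels or arrays, and no result here rests on them. Members, the rule for named features (stated with them) and tests were chosen with earlier results of these data known. The counts of bright features over 1.5-fold without single arrays were added after seeing these values. Alternatives changed filters, background correction, normalization, weights, blocks and the arrays used.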

Additional observations from a re-analysis of the deposited data

How the results depend on the processing

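Of 28 alternatives to the comparison of 2Hz_HR with 100Hz_HR, 23 also called 0 features by limma with Benjamini-Hochberg adjustment. Leaving out 1 array in turn gave 0 to 1 calls. The day of the month in the file headers, taken without the year, gave 1 call when fitted as a block. Keeping only the arrays that share the first of these days gave 1 call too. Both are the fit without 100Hz_HR replicate 3, the only one of the 6 with another day of the month. Since the years in the headers differ, arrays with the same day of the month need not share a date. The year in the file headers, in which 2Hz_HR replicates 2 and 3 differ from the other 4 arrays, gave 11 calls as a block and 4 within the first year, all higher in 2Hz_HR, and both rest on 2Hz_HR replicate 1 alone against 100Hz_HR. With the replicate number as a block the count was 0, with 348 features at an unadjusted p under 0.05, and it was 0 for the difference of differences. Features at an unadjusted p under 0.05 ranged from 157 (fold minimum of 1.5) to 718 (without 100Hz_HR replicate 1). They numbered 210 when the features bright throughout were fitted alone. In Cy3 alone, leaving out 1 array gave 0 to 1 calls, the 1 without 100Hz_HR replicate 1. In Cy5 alone all 9 alternatives gave 0. For the difference of differences, leaving out 1 array gave 0 to 3. The 4 named features passed in none of 27 alternatives each. Their differences were 0.54 to 0.82 for Sr01Sc01R13C08, 0.28 to 1.10 for Sr01Sc01R14C15, -0.79 to -0.41 for Sr06Sc01R09C12 and -1.41 to -0.35 for Sr06Sc03R11C16. The direction was kept, but they were chosen for arrays that do not overlap between the groups. Leaving out, weighting or blocking arrays therefore could not change it, and only other background correction or normalization could. The signal over background limits what dim features can show.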

Other observations

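Of the slide's spots, 1031 are not in the authors' table, 768 of them in the first row of a printed block. From the spot files with loess normalization, 471 of them lay above background in both channels on all 6 arrays. Among these 471, limma found none that differed between 2Hz_HR and 100Hz_HR (0 called, smallest Benjamini-Hochberg adjusted p = 0.667), and 21 had an unadjusted p under 0.05. The SD of their log2 difference was 0.25, beside 0.19 for the features of the table that were bright throughout, measured in the same way.

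Besides 100Hz_HR replicate 2, further high-responder arrays correlated best with a non-responder array over the brightest 25% of features. Replicate 1 of 2Hz_HR gave r = 0.77 with 2Hz_NR replicate 3, replicates 2 and 3 of 2Hz_HR gave r = 0.70 each with 100Hz_NR replicate 3, and replicate 1 of 100Hz_HR gave r = 0.75 with 100Hz_NR replicate 3.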
